A study of Mus musculus with 24 samples.

Results

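The interferon response genes described here are 29 named genes that cells switch on after interferon or foreign nucleic acid, chosen by gene symbol from general knowledge of the pathway. The tables held 3′ UTR intervals for 28 of them among 20867 genes in all, and Mx2 was not analysed here. Reads were found for 27, since Ifi44 had 0 reads in all 24 libraries. The mean over the 24 libraries reached 10 CPM, counts per 1000000 reads in 3′ UTRs, for 10 members, with means from 11.03 to 65.6 CPM, and stayed below it for 18, which had 0 to 1044 reads each over all libraries.

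The cells were mouse preleukemic cells, made by retroviral expression of Meis1 and Hoxa9 in c-Kit-enriched fetal liver cells. Both genotypes carried floxed Tut4 and Tut7, which encode terminal uridylyltransferases that add uridines to RNA ends; control cells lacked Vav-iCre, and Tut4/7 cDKO cells carried it, a recombinase transgene active in blood cells. Cells of both genotypes were given 4-thiouridine at 2.9 µM for 12 h and chased in medium without it for 0, 60, 180 or 540 min, with 3 libraries for each genotype and time. In SLAM-seq, the thiouridines left in a transcript are read as T-to-C conversions, so the same library gives the abundance of a 3′ UTR and the loss of its label. The study's methods call the 3 libraries of a group biological replicates, while the labels give them a number without naming the culture or embryo behind it.

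Type I interferons bind a receptor whose kinases phosphorylate STAT2, and a complex that holds STAT2 and IRF9 binds interferon-stimulated response elements in the promoters of its target genes. Among these targets are sensors of foreign RNA, enzymes that block viral replication and transcription factors such as IRF7 that amplify the response. Blood progenitors express part of this set without infection.

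The response element can be read in the promoters of several members, shown here because genes of the factor that binds it were among those that changed. Its core, searched as GAAA, any 2 bases and a further GAAA, was looked for on both strands of RefSeq promoters of GRCm38.p6, windows of 300 bases that hold the annotated start. It was found in 11 of the 21 members that had a promoter in the table, against 3.99% of all 27025 genes with one. The matches of 5 members that the results turn on are printed 5′ to 3′ with the matched letters in capitals.
Stat2, chr10:128270266-128270295, minus strand: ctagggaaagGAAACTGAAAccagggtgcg
Bst2, chr8:71537583-71537612, minus strand: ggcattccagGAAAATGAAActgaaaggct
Trim30a, chr7:104465210-104465239, plus strand: caggaactgaGAAAAAGAAActaaagaact
Rsad2, chr12:26456553-26456582, plus strand: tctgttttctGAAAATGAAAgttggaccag
Ifih1, chr2:62646206-62646233, minus strand: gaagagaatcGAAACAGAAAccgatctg
In Bst2 a further match overlapped the printed one, and in Trim30a a second annotated promoter held a match too. The other members with a match were Cxcl10, Ddx58, Ifit1, Ifit3, Isg15 and Oas3. The promoter windows of Irf9, Irf7, Cmpk2, Ifi35, Ifi44, Ifit2, Isg20, Oasl1, Oasl2 and Xaf1 did not hold these letters. The gamma-activated site, searched in the same way as TTC, any 3 bases and GAA, was found in Bst2, Ifi35, Ifit2 and Isg20, or 4 of the 21, against 9.55% of all genes with a promoter. Bst2 was the single member with both.

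Libraries held 4380235 to 7041311 reads in 3′ UTRs. The targeted genes were called lower in cDKO at each of the 4 times. Control libraries had 76.5 ± 9.16 CPM of Tut4 at 0 min and cDKO libraries 22.2 ± 6.92 CPM (SD, n = 3), and for Tut7 the means were 40.0 ± 5.24 and 18.7 ± 1.81 CPM. Which exons the floxed alleles remove is not given in the sources used here, so the remaining 3′ UTR reads do not measure remaining protein. Reads of the Meis1 3′ UTR interval were at 0 in all control libraries, while Hoxa9 averaged 2403 ± 58.2 CPM over the control and 4460 ± 615 CPM over the cDKO samples of the summed chase. Of 8 preleukemic identity genes tested on these sums, Meis1 and Hoxa9 were called higher in cDKO and Kit and Ptprc lower. The median log2 change of the 8 was 0.002. The genotypes also differed in markers of other blood cells. Over all libraries the summed level of 10 neutrophil markers was 6769 to 7896 CPM in control and 1855 to 2882 CPM in cDKO, and that of 8 erythroid markers was 0.371 to 3.07 and 1307 to 2091 CPM. Most of the erythroid sum was 1 globin gene, Hbb-bt, at 0.533 CPM in control and 1632 CPM in cDKO with the chase summed. Only 2 of these 8 markers were tested, both called higher in cDKO, and Epor and Car1 had 0 reads in all libraries. Monocyte and macrophage markers, which number 9, summed to 977 to 1578 CPM in control and 320 to 996 CPM in cDKO, where Adgre1 was higher and Ccr2, Csf1r and Lyz2 were lower. Plasmacytoid dendritic cell markers, 8 in number, summed to 146 to 188 and 127 to 182 CPM, with Ly6d at 0 reads throughout and Siglech at 0 reads in control. Within that list and with the chase summed, Tcf4 averaged 63.4 CPM in control and 9.03 CPM in cDKO, but Runx2 101 and 150 CPM. Mast cell and basophil markers, also 8, summed to 16.7 to 35.2 CPM in control and 147 to 322 CPM in cDKO. Of 5 tested with the chase summed, Cpa3, Gata2 and Hdc were called higher in cDKO. Mcpt8 and Ms4a2 were not called, with log2 changes of -0.36 ± 0.14 and -0.16 ± 0.23 (SE). Fcer1a and Cma1 had 0 reads in all libraries. The part of cell composition in the results below was not tested, and fewer cells of a type cannot be told apart from less RNA per cell.

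One library set stood apart among the members. Their summed level was 311 to 443 CPM in the 12 control libraries, with means over the chase of 354, 365 and 364 CPM by replicate. In cDKO these means were 300, 231 and 466 CPM for replicates 1, 2 and 3, so replicate 3 was above and replicates 1 and 2 below the control means. Replicate 3 was the highest and replicate 2 the lowest cDKO library at each of the 4 times. In cDKO replicate 3 the monocyte and macrophage markers averaged 917 CPM, against 514 and 376 CPM in replicates 1 and 2. Mast cell and basophil markers averaged 304 CPM there, against 187 and 173 CPM, erythroid markers 2008 CPM, against 1379 and 1520 CPM, and neutrophil markers 1888 CPM, against 2763 and 2155 CPM. The library-wide conversion rate of that replicate at 0 min was 0.542%, against 0.821% and 0.845%. Their part in the members' levels was not tested. Each call between genotypes that changed without replicate 3 is given with and without it.

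**Figure D1:**
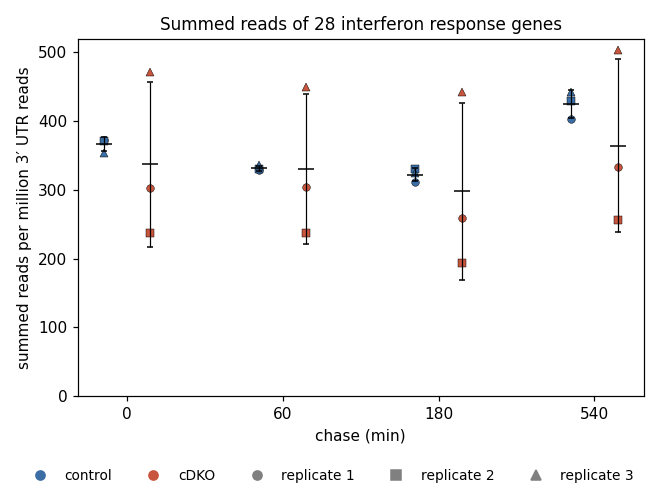
Summed CPM of the 28 interferon response genes (vertical axis) at each chase time (horizontal axis, evenly spaced, not to scale), by genotype (colour) and replicate number (symbol), with the mean and SD of 3 libraries. Control libraries sit between 311 and 443, and cDKO replicate 3 lies above cDKO replicates 1 and 2 at every time.

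With the counts of each genotype and replicate number summed over the chase, which gives the most reads per sample, most of the members that changed were lower in cDKO. Of 22 members tested, 6 were lower in cDKO (Irf9, Stat2, Trim30a, Bst2, Dhx58 and Oas2), 1 was higher (Rsad2) and 15 did not pass an adjusted p of 0.05. These are genes of signal transduction, of RNA sensing and of direct antiviral action. Over all 11204 genes tested 30.6% were called, 15.7% lower and 14.9% higher, so 7 of 22 is close to the background. With no overlap between the 3 samples of each genotype, 8 members lay lower and 2 higher in cDKO, where 48.6% of all genes were apart, 24.2% lower and 24.4% higher. The median log2 change was -0.29 over the tested members and 0.00 over all genes tested. The lean of the members to lower values depended on single samples. Their median was -0.01 without cDKO replicate 2, with 4 called higher and 5 lower, and -0.53 without cDKO replicate 3, with 1 higher and 9 lower. In these fits 3757 of 11423 and 4036 of 11360 genes were called in all, with a median of 0.00 in each. Tests used edgeR's quasi-likelihood method, with Benjamini-Hochberg adjustment over all genes, 3 samples against 3. Abundance changes given below as over the chase compare cDKO with control on these summed counts.

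**Figure D2:**
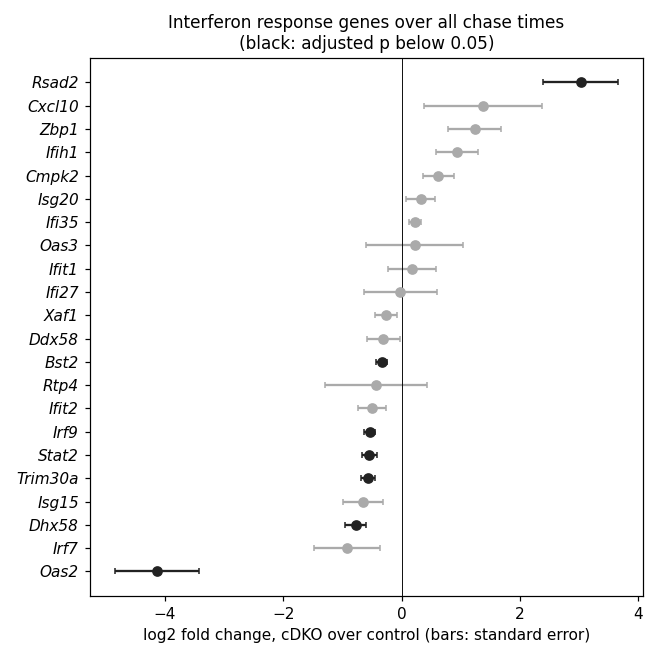
Log2 fold change of cDKO over control with its standard error (horizontal axis) for the 22 interferon response genes tested (vertical axis), with counts summed over the chase and n = 3 in each genotype. The 7 black points passed an adjusted p of 0.05, and 6 of them lie below 0.

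Irf9 and Stat2 encode the DNA-binding and the activating subunit of the factor that drives the response. At 0 min Irf9 was counted at 37.0, 39.1 and 36.7 CPM in control and at 22.1, 27.0 and 23.7 CPM in cDKO libraries, with every cDKO library below every control library. It was called lower at 0 min (log2 change -0.61 ± 0.15 (SE), adjusted p = 0.0301, edgeR). Without cDKO replicate 3 its adjusted p at 0 min was 0.0538. Group means were 30.7 ± 1.12 and 20.9 ± 0.124 CPM at 60 min, 32.7 ± 1.43 and 28.1 ± 7.69 CPM at 180 min, and 54.6 ± 4.81 and 34.9 ± 5.43 CPM at 540 min, in control and cDKO (SD, n = 3). Irf9 was thus called lower at 60 min (adjusted p = 0.0176) and 540 min (adjusted p = 0.0128) by edgeR, and the groups overlapped at 180 min. With the chase summed, Irf9 was lower in cDKO than in control by 0.54 ± 0.09 on the log2 scale (adjusted p = 0.00466, edgeR).

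Stat2 was counted at 38.7, 30.6 and 29.4 CPM in control and 20.5, 24 and 18.4 CPM in cDKO libraries at 0 min, again without overlap, but was not called there (log2 change -0.63 ± 0.19, adjusted p = 0.0623, edgeR). At 60, 180 and 540 min its control means were 24.7 ± 6.29, 28.8 ± 8.58 and 39.7 ± 11.2 CPM, and its cDKO means 17.8 ± 1.59, 20.8 ± 2.39 and 27.6 ± 0.998 CPM. The control libraries spread more widely than the cDKO libraries at all 4 times. With the chase summed, Stat2 was lower in cDKO by 0.55 ± 0.13 on the log2 scale (adjusted p = 0.0183, edgeR). Irf7, the amplifying factor, has a 3′ UTR interval of 42 bases and 204 reads in all. It was not called (log2 change -0.92 ± 0.56, adjusted p = 0.249, edgeR), but without cDKO replicate 3 the change was -1.77 ± 0.46 (adjusted p = 0.0187, edgeR).

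Trim30a, a TRIM-family regulator of innate signalling, was the member with the most reads. At 0 min it was counted at 73.6, 85.9 and 75.7 CPM in control and 46.6, 53.1 and 64.9 CPM in cDKO libraries, and every control library was above every cDKO library at each of the 4 times. Its means were 66.4 ± 5.47 and 52.8 ± 7.13 CPM at 60 min, 66.0 ± 5.04 and 43.0 ± 10.0 CPM at 180 min, and 102 ± 9.65 and 62.0 ± 14.1 CPM at 540 min. It was called lower at 180 min (adjusted p = 0.0237) and 540 min (adjusted p = 0.0159) by edgeR. With the chase summed, it was lower in cDKO by 0.57 ± 0.12 on the log2 scale (adjusted p = 0.00975, edgeR). At 0 min it was called without cDKO replicate 3 (log2 change -0.63 ± 0.15, adjusted p = 0.0192, edgeR) and not with it (-0.50 ± 0.15, adjusted p = 0.0608). Bst2 encodes tetherin, which holds budding virus at the cell surface. It was counted at 55.8, 40.8 and 42.6 CPM in control and 40.4, 28.9 and 37.0 CPM in cDKO libraries at 0 min, where the highest cDKO library lay just below the lowest control library. At 180 min it was 49.1 ± 5.14 and 32.1 ± 1.12 CPM and was called (log2 change -0.63 ± 0.13, adjusted p = 0.00707, edgeR). At 60 min it was 45.5 ± 4.68 and 38.1 ± 5.38 CPM, and at 540 min 39.4 ± 6.86 and 37.5 ± 7.99 CPM, with the groups overlapping at both times. With the chase summed, Bst2 was lower in cDKO by 0.34 ± 0.09 on the log2 scale (adjusted p = 0.0311, edgeR).

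Dhx58 encodes LGP2, a regulator of the RNA sensors. With the chase summed, control samples held 7.54, 9.60 and 7.61 CPM and cDKO samples 4.27, 5.16 and 5.10 CPM, without overlap. The gene was lower in cDKO by 0.77 ± 0.18 on the log2 scale (adjusted p = 0.0157, edgeR). At 540 min it was 9.99 ± 2.11 and 4.73 ± 1.52 CPM and was called there too (adjusted p = 0.0470, edgeR), with a log2 change of -1.09 ± 0.33. That call was lost under 8 of 12 alternatives, among them DESeq2 and leaving out cDKO replicate 3 (adjusted p = 0.0992) or any 1 control replicate, while the log2 change stayed between -1.37 and -0.94. Oas2, an oligoadenylate synthetase that turns on RNA cleavage by RNase L, was counted in 83 reads over the 12 control libraries and in 4 over the 12 cDKO libraries. Summed over the chase, control samples held 1.53, 1.24 and 0.957 CPM and cDKO samples 0.0515, 0 and 0.144 CPM. The fitted log2 change was -4.14 ± 0.71 (adjusted p = 0.00500, edgeR), which rests on few reads. At 0 min 25 control reads stood against 1 cDKO read, a ratio of 21.4 with a 95% exact interval of 3.50 to 878 that covers counting error only.

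**Figure D3:**
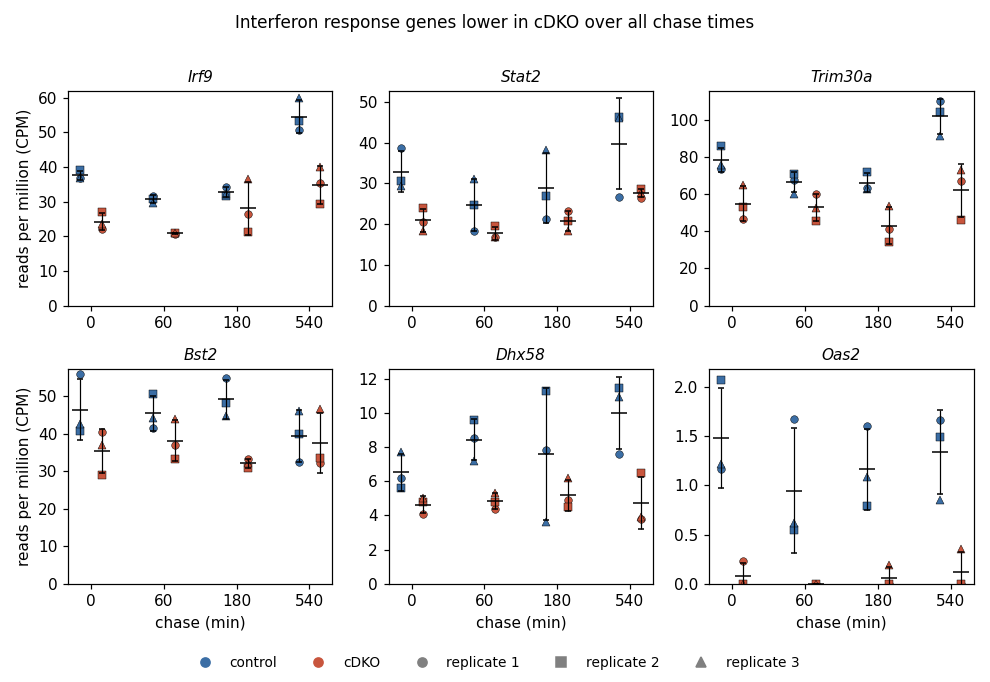
CPM (vertical axes, each from 0) of the 6 interferon response genes called lower in cDKO over the chase, at each chase time (horizontal axes, evenly spaced, not to scale), with points for libraries, bars for the mean and SD of 3 libraries, colours for genotype and symbols for replicate number. Trim30a does not overlap between genotypes at any time, and Oas2 is at or near 0 in cDKO.

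The members called higher in cDKO at any time, Rsad2, Ifih1 and Zbp1, were highest in cDKO replicate 3 at each time. Rsad2 encodes viperin, an antiviral enzyme. With the chase summed it was counted at 0.716, 0.398 and 0.333 CPM in control and 3.76, 1.41 and 6.74 CPM in cDKO, so that all 3 cDKO samples lay above control. It was higher in cDKO by 3.03 ± 0.63 on the log2 scale (adjusted p = 0.0111, edgeR), and by 2.41 ± 0.56 without cDKO replicate 3 (adjusted p = 0.0112). The counts were low, at 32 reads in control and 243 in cDKO, and the call was lost without control replicate 2 or 3. At 60 min Rsad2 was 0.515 ± 0.448 and 4.97 ± 2.46 CPM (log2 change 3.21 ± 0.74, adjusted p = 0.0124, edgeR).

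Ifih1, which encodes the RNA sensor MDA5, was counted at 9.68, 18.0 and 16.1 CPM in control and 29.9, 16.9 and 52.6 CPM in cDKO libraries at 0 min, with cDKO replicate 2 inside the control range. Control means were 17.2 ± 3.72, 14.7 ± 4.56 and 21.8 ± 0.672 CPM at 60, 180 and 540 min, and cDKO means 35.0 ± 15.3, 28.02 ± 16.8 and 37.1 ± 21.7 CPM. The call at 60 min (log2 change 1.00 ± 0.30, adjusted p = 0.0398, edgeR) was lost without cDKO replicate 3 (0.60 ± 0.24, adjusted p = 0.0839). Zbp1, a sensor of Z-form nucleic acid, was counted at 2.90, 13.5 and 3.64 CPM in control and 17.1, 6.53 and 26.3 CPM in cDKO libraries at 0 min, with overlap. Its means were 5.19 ± 1.68 and 17.9 ± 11.7 CPM at 60 min, 5.14 ± 2.38 and 15.2 ± 10.8 CPM at 180 min, and 8.75 ± 2.51 and 12.6 ± 7.63 CPM at 540 min. At 60 min the groups did not overlap and Zbp1 was called (log2 change 1.77 ± 0.45, adjusted p = 0.0195, edgeR), also without cDKO replicate 3 (1.08 ± 0.36, adjusted p = 0.0413). Most of its reads, 1312 of 1397, came from an interval of 70 bases.

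Ifi27, an interferon-induced membrane protein gene, varied most among the cDKO replicates. At 0 min it was counted at 70.3, 59.8 and 57.0 CPM in control and 41.1, 17.5 and 137 CPM in cDKO libraries, so the cDKO libraries lay on both sides of control. Its means were 60.7 ± 5.82 and 54.9 ± 49.7 CPM at 60 min, 57.7 ± 2.71 and 58.6 ± 62.0 CPM at 180 min, and 62.1 ± 6.39 and 61.9 ± 50.6 CPM at 540 min. Over the chase the log2 change was -0.02 ± 0.62 (adjusted p = 0.981, edgeR), and without cDKO replicate 3 it was -1.09 ± 0.34 (adjusted p = 0.0375). Ifi27 was then also called at 0, 60 and 180 min, with log2 changes of -1.10 ± 0.29, -1.16 ± 0.33 and -1.32 ± 0.25 against 0.06 ± 0.56, -0.16 ± 0.54 and 0.01 ± 0.58 with all libraries. Ddx58, which encodes the sensor RIG-I, was counted at 11.6, 14.8 and 20.8 CPM in control and 5.25, 10.2 and 20.6 CPM in cDKO libraries at 0 min, overlapping. Its means were 16.0 ± 2.81 and 14.8 ± 6.75 CPM at 60 min, 13.4 ± 3.30 and 11.2 ± 3.64 CPM at 180 min, and 28.9 ± 1.42 and 22.5 ± 8.95 CPM at 540 min. It was not called over the chase (log2 change -0.31 ± 0.28, adjusted p = 0.435, edgeR) but was without cDKO replicate 3 (-0.72 ± 0.15, adjusted p = 0.00637), and likewise at 540 min (-0.36 ± 0.25 with it, -0.73 ± 0.19 without it).

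**Figure D4:**
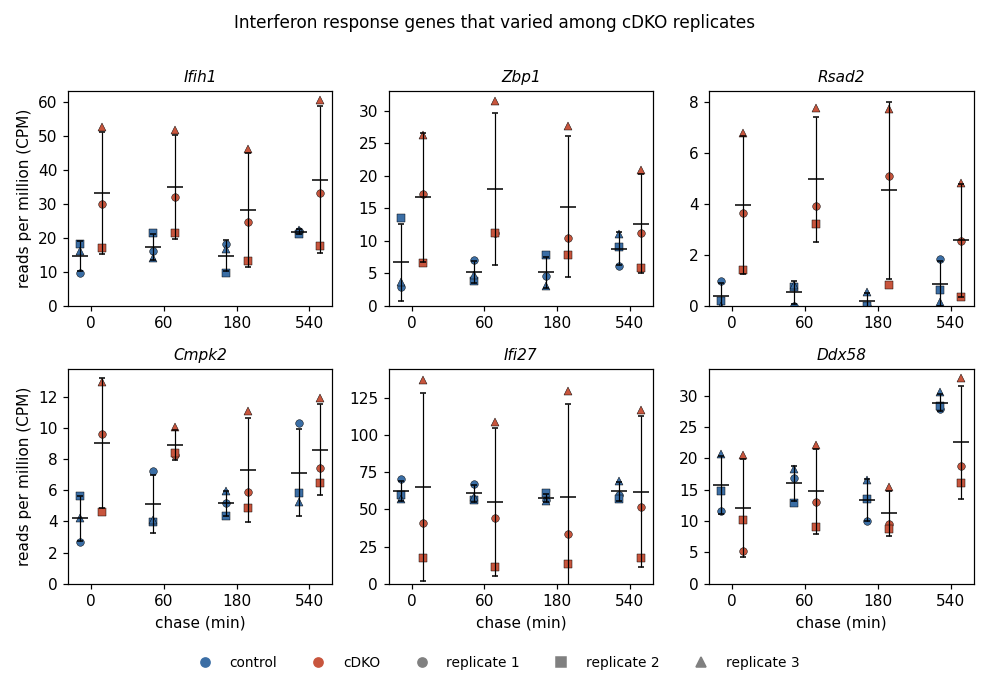
CPM (vertical axes, each from 0, error bars cut there) of 6 interferon response genes that varied among the cDKO replicates, at each chase time (horizontal axes, evenly spaced, not to scale), with points for libraries, bars for the mean and SD of 3 libraries, colours for genotype and symbols for replicate number. In Ifi27 cDKO replicate 3 lies above and cDKO replicates 1 and 2 below every control library at 0 min.

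Isg20 and Ifi35 were not called in any comparison between genotypes. Isg20, an exonuclease, was counted at 16.1, 18.4 and 15.8 CPM in control and 21.9, 12.0 and 23.7 CPM in cDKO libraries at 0 min. Its means at 60, 180 and 540 min were 12.5 ± 4.27, 10.1 ± 3.09 and 11.04 ± 3.20 CPM in control and 18.5 ± 7.51, 11.3 ± 5.31 and 14.7 ± 4.24 CPM in cDKO. Ifi35 was counted at 23.6, 14.8 and 21.8 CPM in control and 26.3, 21.2 and 21.0 CPM in cDKO at 0 min. Its means at the later times were 20.7 ± 3.30, 13.7 ± 2.21 and 18.8 ± 3.00 CPM in control and 21.1 ± 3.85, 18.5 ± 2.71 and 23.5 ± 4.27 CPM in cDKO. Both genes overlapped between genotypes at 0 min. Cmpk2, a mitochondrial nucleotide kinase gene, averaged 5.45 ± 0.862 CPM over the control samples and 8.41 ± 2.76 CPM over the cDKO samples of the summed chase (log2 change 0.62 ± 0.26, adjusted p = 0.116, edgeR), and the change was 0.33 ± 0.21 without cDKO replicate 3.

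Of the other low members, Xaf1, Isg15, Ifit1, Ifit2, Oas3, Rtp4 and Cxcl10 were tested over the chase and not called, with adjusted p from 0.149 to 0.863 (edgeR). Without cDKO replicate 3 the log2 change of Oas3 went from 0.22 ± 0.82 to -1.22 ± 0.63 and that of Rtp4 from -0.43 ± 0.87 to -2.06 ± 0.82, still not called. In Xaf1 96.4% of reads also mapped elsewhere, so its values are uncertain. The members Mx1 (17 reads in all), Usp18 (29), Oasl2 (14), Ifit3 (2) and Oasl1 (1) had too few reads to be tested. Mx1 had 14 of its reads in control and 3 in cDKO, a ratio of 4.25 with a 95% exact interval of 1.19 to 23.0 for counting error. Usp18 ran the other way, with 6 reads in control and 23 in cDKO. At 60 min 10 cDKO reads of Usp18 stood against 0 control reads, at least 3.54-fold higher against a floor of 3 counts over the group. These are reads pooled over libraries, so the bound does not cover the spread between libraries. The genotypes overlapped for Usp18 at 60 min, and for Mx1 and Usp18 with the chase summed.

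At single times the share of members called was near or below that of all genes. At 0 min 1 of 16 tested members was called, lower (Irf9), against 13.4% of all genes (6.72% higher, 6.64% lower). At 60 min 4 of 16 were called, Rsad2, Ifih1 and Zbp1 higher and Irf9 lower, against 20.2% of all genes, 9.97% higher and 10.2% lower. At 180 min 2 of 13 were called, both lower (Bst2 and Trim30a), against 18.9%, 9.1% higher and 9.78% lower. At 540 min 3 of 16 were called, all lower (Dhx58, Irf9 and Trim30a), against 19.2%, 8.89% higher and 10.4% lower. Members whose libraries did not overlap between the genotypes were counted as well. At 0 min 6 tested members lay wholly lower in cDKO and 0 higher, where 33.4% of all genes lay apart (18% lower, 15.4% higher). At 60 min 3 lay lower and 4 higher, against 38.4% (17.9% lower, 20.5% higher). At 180 min 2 lay lower and 0 higher, against 37.3% (17.8% lower, 19.6% higher), and at 540 min 3 lay lower and 0 higher, against 37.1% (18.9% lower, 18.2% higher).

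The number of members called depended on single libraries, and so did the number of all genes called. Over the chase, 10 members were called without cDKO replicate 3, 9 without cDKO replicate 2 and 4 without cDKO replicate 1. Without control replicates 1, 2 and 3 the numbers were 6, 3 and 4. The same fits without cDKO replicates 3, 2 and 1 called 4036 of 11360, 3757 of 11423 and 2546 of 11356 genes in all. Those without control replicates 1, 2 and 3 called 2040 of 11433, 2073 of 11406 and 2090 of 11431 genes. Irf9, Trim30a and Oas2 were called in all 6 of the fits that leave out 1 sample, while Bst2 was called in 1 of them, Stat2 in 3 and Dhx58 and Rsad2 in 4 each. At 0 min no member was called without cDKO replicate 1 or without control replicate 1, 2 or 3, 2 were without cDKO replicate 3 and 7 without cDKO replicate 2. All genes called there were 1010 of 10375, 2223 of 10421 and 1437 of 10371 without cDKO replicates 1, 2 and 3. Without control replicates 1, 2 and 3 they were 700 of 10443, 633 of 10414 and 689 of 10414. At 60 min 2 were called without cDKO replicate 1, control replicate 1 or control replicate 3, and 0 without control replicate 2. These fits called 1538 of 10280, 1360 of 10302, 1316 of 10350 and 1296 of 10317 genes in all, in that order. At 180 min 1 was called without cDKO replicate 1, control replicate 1 or control replicate 2, and 5 without cDKO replicate 2. Over all genes these fits called 1531 of 10311, 1167 of 10375, 1155 of 10352 and 2000 of 10370, in that order. At 540 min 1 was called without control replicate 2 or 3, where 1379 of 10476 and 1250 of 10494 genes were called in all.

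Beyond the members, 4 further lists of the pathway were described over the chase in the same fit, where 30.6% of all genes were called, 14.9% higher and 15.7% lower. Rises and falls here run from control to cDKO. Of the interferons and their receptors, 9 of 13 genes were in the tables and Ifna4, Ifnb1 and Ifng had 0 reads in all libraries. Of 5 tested, 2 receptor subunits fell and none rose: Ifnar2 from 239 ± 1.73 to 163 ± 11.3 CPM (adjusted p = 0.000653, edgeR) and Ifngr1 from 533 ± 22.5 to 384 ± 41.9 CPM. Of 14 tested signal transduction genes 1 rose and 4 fell, among them Irf8, a factor of monocyte and dendritic cell development, from 166 ± 32.0 to 64.0 ± 5.27 CPM. Of 19 tested genes of nucleic acid sensing and its restraint 2 rose and 3 fell, and Adar, which edits double-stranded RNA, went from 84.2 ± 3.53 to 51.4 ± 4.49 CPM. Of 55 other interferon-stimulated genes tested 5 rose and 15 fell, with a median log2 change of -0.18. The share called in both directions together was near that of all genes. Falls outnumbered rises in this list, where over all genes 15.7% were lower and 14.9% higher, and this lean was not tested. Among the fallers were Ifitm3, which blocks viral entry, from 138 ± 8.37 to 20.6 ± 16.8 CPM, Oas1a from 18.3 ± 0.720 to 3.85 ± 2.07 CPM, Ly6a from 4.401 ± 0.709 to 1.02 ± 0.544 CPM, and Ube2l6, an ISG15-conjugating enzyme, from 3.22 ± 0.369 to 0.351 ± 0.321 CPM. Gbp2 rose from 3.67 ± 0.771 to 17.1 ± 13.7 CPM and Cd274, which encodes PD-L1, from 4.03 ± 0.814 to 8.61 ± 3.17 CPM.

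Within control cells, 3 of 17 tested members were higher at 540 min than at 0 min and none was lower, where 16.2% of all genes were called, 8.06% higher and 8.18% lower. The labels give no batch apart from the chase time, so time and any batch that ran with it cannot be told apart in these comparisons. Ddx58 rose by 0.83 ± 0.20 (adjusted p = 0.00781), Irf9 by 0.50 ± 0.12 (adjusted p = 0.00779) and Trim30a by 0.34 ± 0.10 (adjusted p = 0.0318) on the log2 scale (edgeR). In cDKO cells 0 of 15 tested members were called, where 0.117% of all genes were (0.00977% higher, 0.107% lower), with 1 member at an unadjusted p under 0.05 by edgeR and 0 members called by DESeq2. With the replicate number as a block, which pairs the cDKO libraries, 128 genes in all and still 0 members were called. A differing change in the 2 genotypes was called for 0 of 18 members and 0 of 10651 genes (0%), with 0 members at an unadjusted p under 0.05, and for 0 members by DESeq2. For Ddx58 the difference was 0.03 ± 0.53, for Irf9 -0.02 ± 0.20 and for Trim30a -0.20 ± 0.23 on the log2 scale, so their rises in control are not shown to differ from the changes in cDKO.

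Conversions were tested for the 13 members with at least 100 covered T positions in every library and at least 50 conversions in all. At 0 min control libraries were converted at 1.64 ± 0.0261% over all genes and cDKO libraries at 0.736 ± 0.169%, so labelling was compared relative to each library. On that scale 0 of 13 members were called, where 0.304% of all genes were (0.272% higher, 0.0326% lower), with 0 at an unadjusted p under 0.05 by edgeR and 0 called by DESeq2. Trim30a, with the most conversions, was converted at 2.15, 2.25 and 2.33% in control and 1.27, 1.00 and 0.688% in cDKO libraries at 0 min. These were 1.37 and 1.34 times the library-wide rates on average (log2 difference -0.05 ± 0.16, adjusted p = 0.978, edgeR). Without scaling to the library 8 of 13 members were called, all lower in cDKO, where 7504 of all 9207 genes tested were called in either direction.

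The members differed in how fast they lost label over the chase. In control cells 36.5% of the Trim30a rate was left at 180 min and 4.44% at 540 min, against 84.6% and 67.7% for Bst2. In cDKO cells 67.1% and 4.98% of the Trim30a rate were left, while Bst2 stood at 149% and 115% of its 0 min rate. The Bst2 rate at 0 min in cDKO had an SD of 0.46 of its mean, so its half-life there is uncertain. Half-lives from a single exponential were 160 min in control and 239 min in cDKO for Trim30a, with per-replicate ranges of 144 to 184 and 211 to 303 min that did not overlap. For Stat2 they were 149 min (109 to 244) and 103 min (42.1 to 216), and for Ifi27 545 min (379 to 1555) and 327 min (129 to 959), with overlapping ranges. These were the 3 members whose replicates at 0 min had an SD below 0.3 of their mean in both genotypes. Log-linear fits with a free intercept gave 115 min in control and 117 min in cDKO for Trim30a. For Stat2 such fits gave 96.9 and 137 min, and for Ifi27 474 and 459 min. The direction of the Stat2 difference thus depended on the fit. In control, only 3 of 18 same-number pairs of times passed a correlation of 0.1, so a number was not shown to mark 1 culture. The control ranges by replicate number therefore need not show the spread between cultures. Trim30a was the only member of the 13 with ranges apart, and the share of all genes with ranges apart is not given here. The single-exponential half-life was longer in cDKO for 11 of 13 members and shorter for 2, where it was longer for 65.5% of all 9207 genes with the same coverage. The 11 include Bst2, whose cDKO value lay at the upper bound of 10000 min, and of the 3 members with the lower SD only Trim30a was longer. Over the 3712 genes that met the same SD rule the medians were 224 min (control) and 251 min (cDKO).

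The test of the decay rate called 0 of 13 members, where 0.13% of all genes were called, with 3 members at an unadjusted p under 0.05 by edgeR (Dhx58, Ifih1 and Xaf1) and 0 called by DESeq2. For Ifih1 the rate changed by -0.64 ± 0.09 per hour on the log2 scale in control and by -0.30 ± 0.07 in cDKO (difference 0.33 ± 0.13, adjusted p = 0.176, edgeR). At 540 min 2 Ifih1 conversions were counted in the control libraries and 13 in the cDKO libraries, all 13 in cDKO replicate 1 and 0 in cDKO replicates 2 and 3. With the replicate number as a block, 59 genes in all and 0 members were called, against 12 genes without it. Trim30a did not pass the test (difference 0.05 ± 0.07, adjusted p = 0.730, edgeR), although its half-life ranges were apart.

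**Figure D5:**
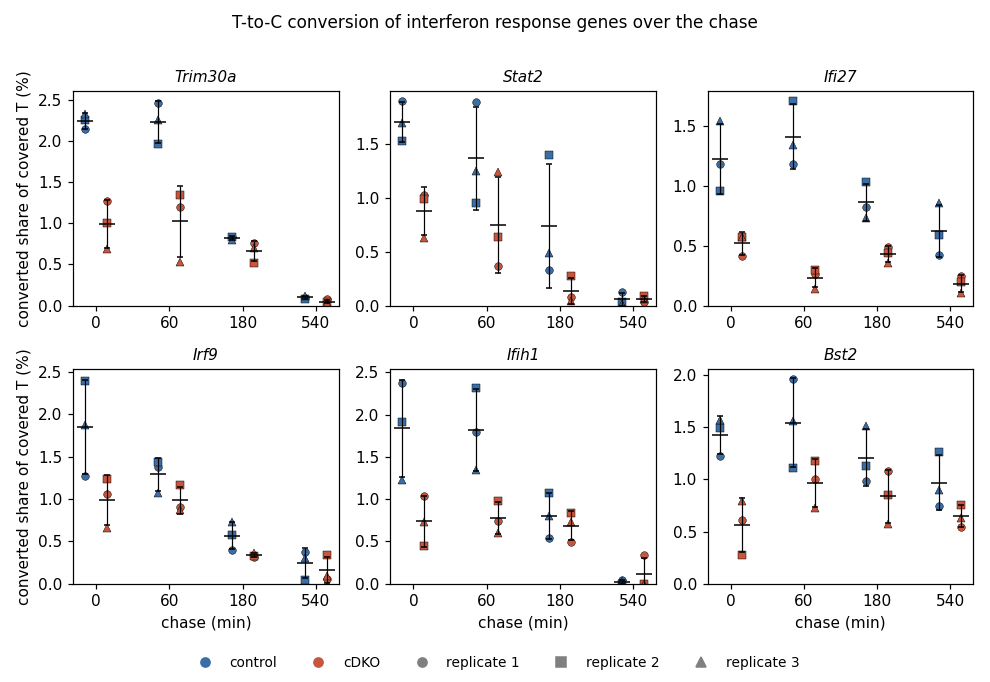
Share of covered T positions read as C, in percent (vertical axes, each from 0), for 6 interferon response genes at each chase time (horizontal axes, evenly spaced, not to scale), with points for libraries, bars for the mean and SD of 3 libraries, colours for genotype and symbols for replicate number. Control libraries start higher than cDKO libraries for Trim30a, and Bst2 keeps the largest share of its label at 540 min in control.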

How the data were processed

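SLAM-seq 3′ end libraries of 24 samples were analysed. Per the file headers, the authors mapped reads with SlamDunk 0.4.3 and deposited, for each 3′ UTR interval, counts of reads, of covered T positions and of T-to-C conversions. The submitters' processing notes name the build GRCm38. The deposited CPM and rate columns were not used. Of 39419 lines, 39096 were matched to RefSeq symbols. Of overlapping intervals of a gene the longest was kept, and intervals were summed to 20867 genes. Depth was 4380235 to 7041311 reads a library (median 5321078), which limits low genes. Replicates were distinct libraries, since read counts of all 24 pairs within groups differed by more than sampling noise (chi-square per degree of freedom 3.35 to 27.8).

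Counts were tested with edgeR 4.0.16 (quasi-likelihood, TMM, filterByExpr), with Benjamini-Hochberg adjustment over all genes and a threshold of 0.05. DESeq2 1.42.0 was an alternative. CPM values divide by a library's 3′ UTR reads, without TMM. Conversions were tested with log covered T positions as offset, times the library-wide rate for labelling at 0 min, and for decay with the interaction of genotype and hours. Half-lives were bounded to 1 to 10000 min. Scripts were tested on simulated data. Across genotypes same-numbered libraries did not deviate together (correlations of deviations -0.0783 to 0.100 over 8321 genes). Within cDKO the same number at different times did (0.274 to 0.778 in 18 pairs), and within control 3 of 18 pairs passed 0.1, so the number was read as pairing within cDKO only. The main fits did not use it as a block, and fits with that block are given as alternatives.

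The members and lists were chosen with earlier results of these data known. All members are accounted for. Those with at least 10 CPM get each library's value at 0 min, and from each further list up to 4 genes a direction are named, those with the largest change among genes called over the chase and at 0 min. Alternatives were other tests, filters, normalization, intervals, blocks, times, backgrounds and leaving out each replicate, with that for half-lives added after seeing the data.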

Additional observations from a re-analysis of the deposited data

How the results depend on the processing

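Of 233 alternative values for the 20 calls of single genes, 183 kept direction and threshold, 50 kept direction only and 0 reversed. At 0 min the number of members called was 1, and it was 3 with DESeq2, 3 without a filter, 4 with all 24 libraries in 1 fit and 0 with the replicate block. At 60 min it was 2 with all 24 libraries in 1 fit, and at 180 min 4 without a filter. For labelling it was 8 of 13 with the offset of covered positions alone, where 7504 of 9207 genes were called. With at least 1000 covered positions 4 members remained, and the half-life was the longer one in cDKO for 3 of these, since fewer genes were left. The other causes were not tested. Leaving out 1 replicate gave 0 to 7 members at 0 min, 0 to 4 at 60 min, 1 to 5 at 180 min, 1 to 4 at 540 min, 3 to 10 over the chase, 2 to 4 for 540 against 0 min in control, 0 to 0 in cDKO, for the difference, labelling and decay, and 9 to 11 for longer half-lives. Over all genes, leaving out 1 replicate gave 633 to 2223 calls at 0 min and 2040 to 4036 over the chase. Same-numbered libraries share only a number across genotypes, and the replicate block gave 3 members at 60 min, 2 at 180 min, 2 at 540 min and 7 over the chase. Over all genes, calls for 540 against 0 min in cDKO were 12, and 123 with DESeq2, 128 with the block and 103 with all 4 times. Decay calls were 12, and 277 with DESeq2, 59 with the block, 23 with the library rate, 3 after background removal and 1 without 540 min. The difference went from 0 to 6 genes with DESeq2 or the block, the 0 min count from 1360 to 2292 in 1 fit, and the count over the chase from 3433 to 5176 with libraries unsummed. Depth limits the 18 members under 10 CPM.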
